A study of Mus musculus with 19 samples.

Results

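Thymocytes of AND mice, which carried 1 T cell receptor (TCR), were compared with thymocytes of MHCI-/- mice, which carried many. Both genotypes direct developing T cells to the CD4 lineage. AND mice express a transgenic TCR specific for MHC class II, and were on a *Rag1*-/- background that prevents rearrangement of their own receptor genes. MHCI-/- mice lack *B2m*, the light chain of MHC class I, and rearrange a diverse repertoire. All 4 animals were females of 4 to 8 weeks, and the tissue was whole thymus. The AND cells were not sorted, whereas the MHCI-/- cells had been sorted as live CD5+TCRβ+ thymocytes. The AND transgene came from a B10 line crossed to *Rag1*-/- mice (B6.129S7), and the *B2m* deletion was carried on B6.129P2, so that both deletions came from 129-derived chromosomes bred onto B6. The TCR, the *Rag1* deficiency, the *B2m* deficiency, the sort and the strain background therefore cannot be told apart by comparing these genotypes. The first AND mouse also differed in experiment, as given below.

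Each mouse was 1 lane of CITE-seq, in which mRNA and 111 surface antibodies are counted in the same cells as unique molecular identifiers (UMIs). To place unsorted and sorted cells on the same footing, cells were kept with at least 200 genes, at most 15% mitochondrial UMIs, and CD5 and TCRβ antibody levels at or above the 25th percentile of the pooled MHCI-/- cells. This gate kept 8209 of the 15728 barcodes in the 4 lanes, out of 85389 barcodes in the 19 lanes of the series. The AND mice gave 1558 and 1711 gated cells and the MHCI-/- mice gave 2703 and 2237. The gate lay within the AND distribution, since 19.5% of AND cells and 11.6% of MHCI-/- cells had CD5 within 10% of the threshold of 1518.5 per 10000 antibody UMIs. AND cells just outside and just inside stood at 1518.19 and 1518.65. UMIs were summed per mouse, so that every comparison was 2 mice against 2 mice.

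CD4 T cells are selected in the thymus from CD4+CD8+ (double-positive) precursors whose TCR binds MHC class II with self peptide. The strength of that signal is reflected in CD5, in Nr4a family and Egr family immediate early genes, and, when it is strong, in genes of negative selection or of regulatory T cell development. A monoclonal thymus holds cells that all received their signals through the same TCR, whereas a polyclonal thymus holds cells with a wide range of affinities. Maturing CD4 single-positive cells then lose CD69, gain egress genes such as *Klf2* and *S1pr1*, and respond to type I interferon made in the thymus.

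Summed gated RNA amounted to 7045950 and 9442422 UMIs for the AND mice and to 10601661 and 13409876 UMIs for the MHCI-/- mice, with medians of 3429 to 5375 UMIs per cell. The second AND lane stood apart in antibody depth. It had a median of 1026 antibody UMIs per gated cell against 2183 to 5122.5 in the other 3 lanes. The first AND mouse was processed in a different experiment from the other 3. Pairs of lanes shared 0 to 4 gated barcodes. T cell genes marked the cells in every lane (*Cd3e*, 6463 to 9266 UMIs). The plasmacytoid dendritic cell gene *Siglech*, the epithelial regulator *Foxn1* and the natural killer genes *Klrb1c* and *Ncr1* were at 0 in all 4. Surface levels of CD4, CD8a and CD69 divided the gated cells into stages. CD4+CD8a+ cells were 20.3% (exact 95% interval 18.4 to 22.4) and 49.1% (46.7 to 51.5) of AND cells and 26.9% (25.2 to 28.6) and 26.2% (24.4 to 28.1) of MHCI-/- cells. CD4+CD8a-CD69+ cells were 50.3% and 26.5% against 41.1% and 43.4%, and CD4+CD8a-CD69- cells were 28.4% and 24.3% against 31.0% and 29.5%. The intervals cover counting error only. The 2 AND mice lay on either side of the MHCI-/- mice for the first 2 stages, so these shares were not resolved between genotypes. The shares also depended on the thresholds and the gate. With thresholds set within each lane, CD4+CD8a+ cells were 6.03% and 13.8% of AND cells against 17.2% and 17.3% of MHCI-/- cells, and CD4+CD8a-CD69- cells of the second AND mouse went from 24.3% to 3.1%. With the gate at the 50th percentile, CD4+CD8a+ cells were 18.3% and 41.8% against 10.7% and 8.27%. With antibodies thinned to 800 UMIs in every cell, the second AND mouse gave 46.7% CD4+CD8a+, 32.4% CD4+CD8a-CD69+ and 20.7% CD4+CD8a-CD69- cells, against 20.8%, 52.4% and 25.8% in the first. The part of background binding in the second AND lane in the gate was not tested. With 2 mice against 2, an exact permutation test cannot go below p = 0.333, and no share was tested.

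The receptor genes showed the difference in repertoire. Variable segments of the β chain gave 129 and 469 UMIs in the AND mice and 476 and 520 UMIs in the MHCI-/- mice. *Trbv26* made up 124 of 129 (96.1%, exact 95% interval 91.2 to 98.7) and 459 of 469 (97.9%) of these UMIs in AND cells. In MHCI-/- cells it made up 2.73% and 2.31%. There *Trbv2* led with 20.2% and 22.5%, and no UMI of *Trbv2* was counted in either AND mouse. Of the 35 β variable segments annotated, 5 and 6 were detected in AND cells and 22 and 23 in MHCI-/- cells. *Trbv26* (chromosome 6) stood at 17.6 and 48.6 UMIs per 1000000 gene UMIs (CPM) against 1.23 and 0.895 CPM, a log2 fold change of 4.94 ± 0.58 (SE, edgeR, adjusted p = 0.0049). Among the 12 β segments that passed the low-count filter, 1 was higher and 11 were lower in AND cells, and 7 of those 11 had no UMI in either AND mouse. Those 11 passed the filter through the MHCI-/- mice, so their direction was fixed by it and the count is description only.

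**Figure D1:**
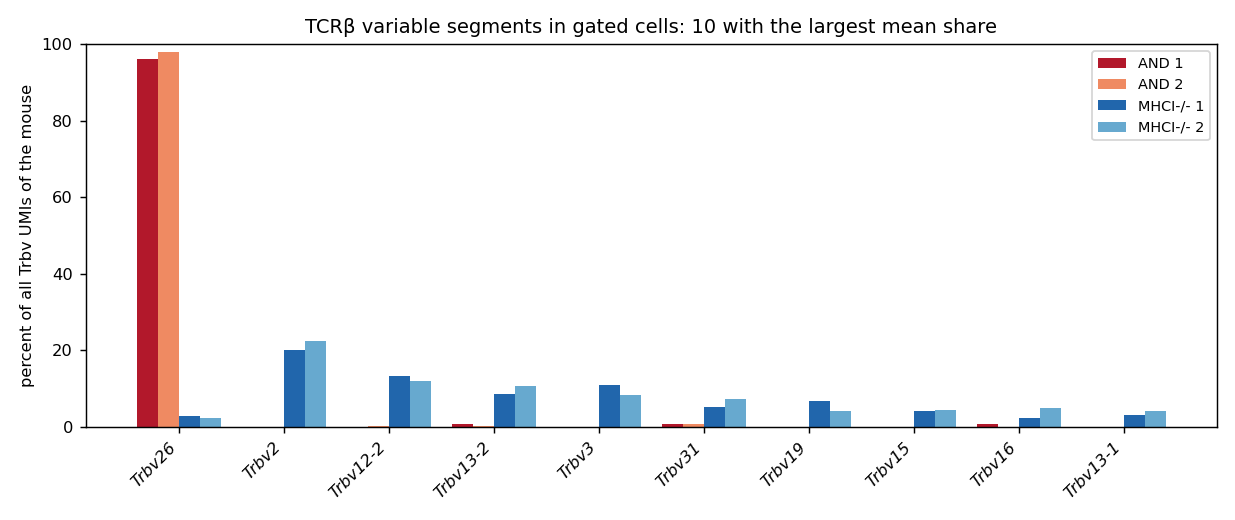
Share of each TCRβ variable segment in the β segment UMIs of each mouse, in percent, for the 10 segments with the largest mean share; each bar is 1 mouse. *Trbv26* takes 96.1% and 97.9% in the AND mice, and no segment passes 22.5% in the MHCI-/- mice.

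UMIs of α variable segments were spread more widely in AND cells than those of β segments. They summed to 20.4 and 31.3 CPM in AND cells against 135 and 129 CPM in MHCI-/- cells. Whether they came from the transgenic α chain was not tested. *Trav22* led with 36.8% and 42.6% of 144 and 296 α segment UMIs, followed by *Trav14d-3-dv8* with 27.8% and 19.3%. F5 mice carry another transgenic TCR on *Rag1*-/-, which is specific for MHC class I and directs cells to the CD8 lineage, and were not sorted. They had *Trav22* as their second segment, at 20.8% and 21.3%. Its level was 7.41 and 14.4 CPM in F5 cells against 7.52 and 13.3 CPM in AND cells. In MHCI-/- cells *Trav14d-3-dv8* led with 10.5% and 9.14% of 1430 and 1728 UMIs. The number of α segments detected, of 128 annotated, was 16 and 25 in AND cells against 77 and 80. α segments have near-identical copies, so the split of UMIs between them is uncertain. The constant regions also differed. *Trac* stood at 3155 and 3778 CPM in AND cells and 1096 and 1181 CPM in MHCI-/- cells (1.55 ± 0.13, adjusted p = 0.0015). *Trbc1* stood at 5102 and 7973 CPM against 2014 and 1962 CPM (1.66 ± 0.21, adjusted p = 0.0064), while *Trbc2* stood at 2274 and 3033 CPM against 3810.4 and 3814 CPM and did not pass the test (-0.58 ± 0.16, adjusted p = 0.099). A larger difference was in *Trdc*, the δ chain constant gene that lies inside the α locus. It stood at 314 and 214 CPM in AND cells against 18.9 and 21.7 CPM (3.63 ± 0.19, adjusted p = 0.0003). In the same gate it stood at 407 to 434 CPM in F5 mice and 284 to 486 CPM in OT-I mice, at 51.9 and 54.1 CPM in OT-II mice, the third TCR transgenic, whose receptor is also specific for MHC class II, and at 14.9 to 22.7 CPM in sorted wild-type mice. The receptor of OT-I mice is specific for MHC class I. OT-I and OT-II cells were not sorted and came from a further experiment. The antibody against TCRγδ stood at 15.2 and 27.9 per 10000 antibody UMIs against 10 and 9.82 and did not pass the test with either scaling (edgeR). Its log2 fold change was 1.12 at library size (adjusted p = 0.14) and -0.08 ± 0.18 with TMM scaling (adjusted p = 0.76), so the sign depended on the scaling. By antibody, TCR Vβ5+ cells were 5.04% and 5.35% in MHCI-/- mice, at 800 antibody UMIs per cell with the threshold at the 99th percentile of the pooled AND cells, which fixes the AND share over both mice.

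*B2m* (chr2:122147686-122153083), the gene deleted in MHCI-/- mice, stood at 513 and 458 CPM in AND cells and 58.3 and 55.3 CPM in MHCI-/- cells. It was higher in both AND mice, with a log2 fold change of 3.03 ± 0.12 (edgeR, adjusted p = 7.4e-05). *Rag1* (chr2:101638282-101649501), the recombinase gene deleted in AND mice, stood at 1.42 and 9.85 CPM in AND cells against 11.3 and 5.67 CPM, so the genotypes overlapped (-0.57 ± 0.67, adjusted p = 0.71). In CD4+CD8a+ cells it stood at 5.28 and 18.9 CPM against 35 and 15.8 CPM and overlapped, and in CD4+CD8a-CD69- cells at 0 and 0 CPM against 6.29 and 4.83 CPM (edgeR, adjusted p = 0.0018). Over all gated cells and without the second AND mouse its log2 fold change was -2.62 (adjusted p = 5.6e-05), and without the first it was 0.20. Reads were counted at the 3′ end, and the sources used here do not say which part of either gene is deleted, so a remaining 3′ tag checks the *Rag1* label neither way.

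Among 10956 genes tested over all gated cells, 109 were higher in AND cells (0.995%) and 403 were lower (3.68%), with edgeR's quasi-likelihood test at an adjusted p under 0.05. Without regard to the test, both AND mice were above both MHCI-/- mice for 30.7% of genes and below them for 20.3%. The total of 512 moved with the mice used. It was 1604 without the first AND mouse and 2127 without the second, and it was 143 or 186 without the first or second MHCI-/- mouse. In sums over cells, fewer cells of a type and less RNA per cell cannot be told apart. Leaving out the first AND mouse keeps the 3 mice of 1 experiment, but all 3 also entered the full fit and 1 AND mouse remains. The part of the experiment in these calls was not tested.

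Among called genes with a mean of at least 50 CPM in the higher genotype, and leaving out receptor segment and constant genes, the increase was largest in *Hltf* (chr3:20057811-20118490), which encodes a helicase-like transcription factor that acts at stalled replication forks. *Hltf* stood at 1116 and 1283 CPM in AND cells and 29.3 and 36.8 CPM in MHCI-/- cells. The log2 fold change was 5.12 ± 0.16 (edgeR, adjusted p = 3e-05), and it was called under all 14 settings with values between 4.92 and 5.25. At 2000 RNA UMIs per cell, 82.3% and 88.5% of AND cells had an *Hltf* UMI against 5.80% and 6.71% of MHCI-/- cells. The other mice of the series, in the same gate, lay between 27.8 and 67.1 CPM. *Myo6*, a myosin that moves toward the minus end of actin filaments, stood at 64.4 and 67.2 CPM against 3.02 and 5.89 CPM (3.79 ± 0.23, adjusted p = 0.00045). *Dtx1*, a Notch target and ubiquitin ligase, stood at 170.2 and 78.8 CPM against 15.5 and 20.5 CPM (2.71 ± 0.34, adjusted p = 0.006). *Dapl1* stood at 122 and 55.3 CPM against 13.9 and 11.9 CPM (2.71 ± 0.35, adjusted p = 0.0066). For both *Dtx1* and *Dapl1* the first AND mouse was higher than the second. Genes were named here only where the genotypes did not overlap. The remaining genes named among those higher in AND cells were *Fam101b* (1.80), *Dennd2d* (1.17), *Klf3* (1.11), *Sgk1* (1.08), *Lrrc8a* (0.97), *Thy1* (0.97) and *Madd* (0.95), given as log2 fold changes. *Klf3* encodes a Krüppel-like repressor, *Sgk1* a kinase of the AGC family, *Lrrc8a* a subunit of the volume-regulated anion channel and *Thy1* the CD90 glycoprotein of T cells. Without the first MHCI-/- mouse, *Klf3*, *Sgk1*, *Lrrc8a* and *Madd* were no longer called (adjusted p = 0.21, 0.11, 0.18 and 0.18), nor were they without the second (0.095, 0.052, 0.053 and 0.11), and *Thy1* was lost without the second (0.059).

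**Figure D2:**
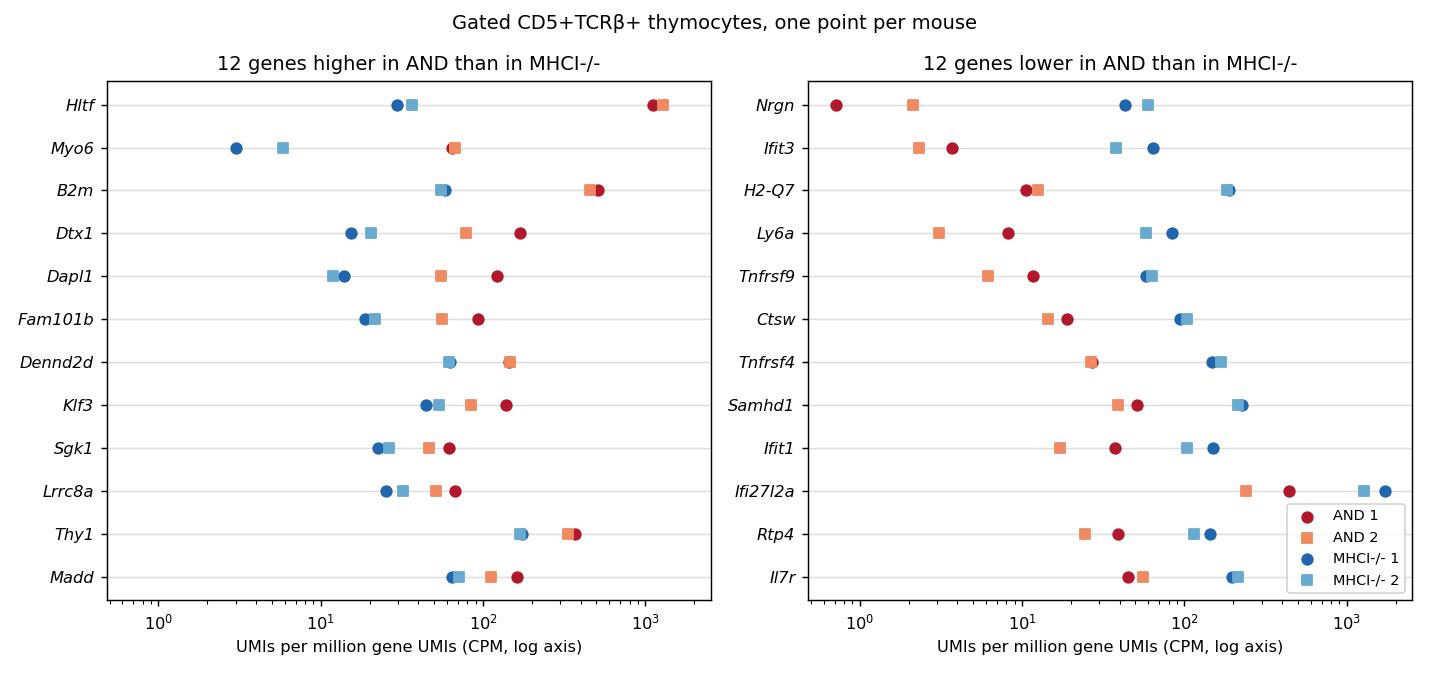
CPM on a log axis of the 12 genes with the largest increase and the 12 with the largest decrease in AND gated cells among called genes with a mean of at least 50 CPM in the higher genotype, with receptor segment and constant, ribosomal, mitochondrial and unnamed genes left out; each point is 1 mouse. Genes were chosen without overlap between the genotypes, so the separation of the points was fixed by that choice; *Hltf* lies at 1116 and 1283 CPM against 29.3 and 36.8 CPM.

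The difference at *Hltf* extended to its direct neighbours. Of the 8 genes tested with a start within 1 Mb of that of *Hltf*, itself included, 4 were higher in AND cells and 0 were lower. *Hps3* (chr3:19995945-20035315), a subunit of a complex for lysosome-related organelles, stood at 36.2 and 38 CPM against 15.7 and 14.9 CPM (1.22 ± 0.14, edgeR, adjusted p = 0.0039). *Gyg* (chr3:20122084-20155317), the glycogenin that primes glycogen synthesis, stood at 42.2 and 41.4 CPM against 22.5 and 21.8 CPM (0.85 ± 0.12, adjusted p = 0.01). *Cpa3* (chr3:20215620-20242181), the carboxypeptidase of mast cell granules, gave 354 and 86 UMIs in AND cells and 1 and 3 UMIs in MHCI-/- cells (7.28 ± 1.15, adjusted p = 0.016). *Armc1*, *Mtfr1*, *Pde7a* and the noncoding *4632415L05Rik*, on the far side of *Hps3*, were not called. Widening the window to 5 Mb gave 11 tested genes with the same 4 called, and to 10 Mb gave 24 tested genes with 4 higher and 1 lower. Around *Rag1*, 0 of 7 tested genes within 1 Mb were higher and 1 was lower, with 3 of 25 lower within 5 Mb and 4 of 52 within 10 Mb. Around *B2m*, 1 of 25 was higher, *B2m* itself, and 0 were lower, with 1 higher and 1 lower of 97 within 5 Mb and 2 higher and 3 lower of 163 within 10 Mb. Over all genes 0.995% were higher and 3.68% lower. *Hps3* was lost without the second MHCI-/- mouse (adjusted p = 0.051) and *Gyg* without the first or second (0.11 and 0.15).

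**Figure D3:**
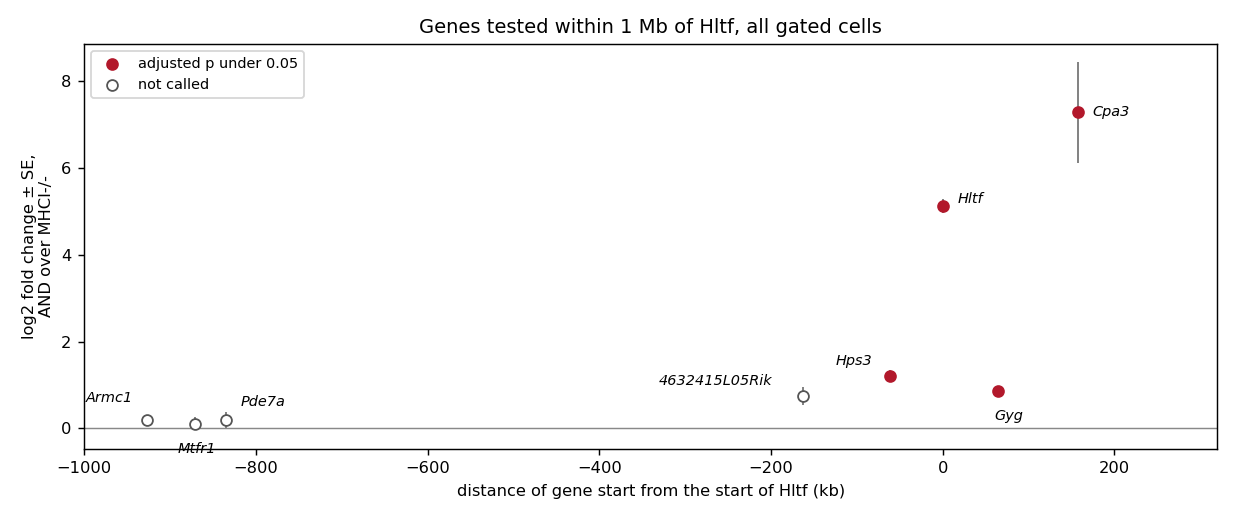
Log2 fold change of AND over MHCI-/- gated cells (± SE) of the 8 genes tested within 1 Mb of *Hltf*, against the distance of their start from the start of *Hltf* in kb; filled points passed an adjusted p of 0.05. *Hps3*, *Hltf*, *Gyg* and *Cpa3* are called, and the 4 genes to the left of *Hps3* are not.

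Genes lower in AND cells included several that encode receptors. *Nrgn*, which encodes a calmodulin-binding protein, stood at 0.710 and 2.12 CPM in AND cells and 43.3 and 59.9 CPM in MHCI-/- cells (-5.15 ± 0.33, edgeR, adjusted p = 0.00045). *Il7r* (chr15:9505788-9530176), the IL-7 receptor α chain, stood at 44.8 and 55.3 CPM against 196 and 214 CPM (-2.09 ± 0.13, adjusted p = 0.00045). Both genes were chosen among those without overlap between the genotypes. *Il7r* was also lower in each of the 3 stages (-2.45, -2.01 and -1.44 in CD4+CD8a+, CD4+CD8a-CD69+ and CD4+CD8a-CD69- cells). Its protein, CD127, was low in all mice (9.0 and 29.2 per 10000 antibody UMIs against 9.86 and 9.77), and the genotypes overlapped. *Tnfrsf4* (OX40) stood at 27 and 26.7 CPM against 147 and 169 CPM (-2.62 ± 0.11, adjusted p = 8.3e-05), and *Tnfrsf9* (4-1BB) at 11.6 and 6.14 CPM against 57.9 and 63.5 CPM (-2.87 ± 0.24, adjusted p = 0.0014). Both are costimulatory TNF receptors induced by TCR signaling. *Ctsw*, which encodes cathepsin W of cytotoxic cells, stood at 19 and 14.5 CPM against 93.5 and 104 CPM (-2.63 ± 0.14, adjusted p = 0.0003). Several of these genes were also low in other transgenic mice in the same gate. *Nrgn* stood at 0.29 to 1.60 CPM in F5 mice and at 53.0 to 85.3 CPM in sorted wild-type mice. F5 mice were also *Rag1*-/- and unsorted, but their TCR is specific for MHC class I. *Il7r* stood at 2.31 to 6.61 CPM in F5 mice, 93.5 to 102 CPM in OT-II mice, whose TCR is also specific for MHC class II, and 187 to 246 CPM in sorted wild-type mice. *Tnfrsf4* stood at 2.28 to 2.45 CPM in F5 and 12.2 to 15.6 CPM in OT-II mice.

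Interferon-stimulated genes were lower in AND cells. Of the 20 genes listed, 20 were tested, 18 were lower and 0 were higher, where 3.68% and 0.995% of all genes were. The listed genes had a median log2 fold change of -1.76 against 0.01 over all genes. Their summed level was 1441 and 945 CPM in AND mice and 4341 and 3386 CPM in MHCI-/- mice. *Ifi27l2a* stood at 442 and 239.6 CPM against 1723 and 1270.5 CPM (-2.21 ± 0.29, edgeR, adjusted p = 0.0071). *Ifit1*, which binds viral RNA that lacks cap methylation, stood at 37.5 and 17.1 CPM against 150.4 and 104 CPM (-2.32 ± 0.34, adjusted p = 0.01), and its relative *Ifit3* at 3.69 and 2.33 CPM against 64.2 and 38 CPM (-4.18 ± 0.36, adjusted p = 0.0015). *Samhd1*, a deoxynucleotide hydrolase, stood at 50.8 and 39.2 CPM against 225 and 215 CPM (-2.36 ± 0.14, adjusted p = 0.00045). The other genes named were *Oasl2* (-4.22), *Rtp4* (-2.1), *Gbp2* (-1.47), the antiviral tetherin *Bst2* (-1.89), the ubiquitin-like modifier *Isg15* (-1.30) and the GTPase *Igtp* (-1.62). *Ly6a*, which encodes Sca-1, stood at 8.23 and 3.07 CPM against 84.2 and 57.6 CPM (-3.78 ± 0.37, adjusted p = 0.0022), and the Sca-1 antibody stood at 36.8 and 51.5 per 10000 antibody UMIs against 131 and 124 (-2.67 ± 0.29, adjusted p = 0.019). The antibody lost its call without the CD5 and TCRβ gate. It was also not called without the first or the second MHCI-/- mouse, and *Isg15* was not without the first. Over the settings tried, 15 to 20 of the listed genes were lower.

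The direction was the same in each surface stage. The genes called lower were 16 of 19 in CD4+CD8a+ cells, 18 of 19 in CD4+CD8a-CD69+ cells and 19 of 19 in CD4+CD8a-CD69- cells. Over all genes, 2.1%, 6.37% and 5.46% were lower in these stages, of 4.16%, 9.17% and 7.04% called. In both genotypes the summed level was higher in CD4+CD8a-CD69- than in CD4+CD8a+ cells, at 1888 and 1376 against 735 and 704 CPM in AND mice and 6071 and 5009 against 2125 and 1358 CPM in MHCI-/- mice. In CD4+CD8a+ cells the count was 10 without the first MHCI-/- mouse and 2 without the CD5 and TCRβ gate. In the same gate the summed level of the list was 3322 to 3680 CPM in sorted wild-type mice, 435 to 588 CPM in F5 mice and 1924 to 3203 CPM in OT-II mice. Both AND mice lay below both OT-II mice and above both F5 mice.

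Promoters of these genes are known for the interferon-stimulated response element, to which proteins of the IRF family bind. The letters GAAANNGAAA, or TTTCNNTTTC for the other strand, were looked for between 250 bases before and 50 bases after each gene start in RefSeq (GRCm38.p6). They were found in 7 of the 14 listed genes that had an entry (*Bst2*, *Gbp2*, *Ifi203*, *Ifit1*, *Ifit3*, *Igtp* and *Isg15*) and in 3.99% of the 27025 genes with an entry. Of the 7 with the letters 6 were called lower in AND cells, and of the 7 without them 6 were too. *Ifi203*, the exception among the first, stood at a log2 fold change of -0.53. A match is a description of the letters and not a binding site. The stretches before the start of 4 of these genes are shown in the direction of transcription, with the matches in capitals. They were chosen because their matches lie before the start in both annotations used.
*Ifit1* (chr19:34640689-34640870, plus strand): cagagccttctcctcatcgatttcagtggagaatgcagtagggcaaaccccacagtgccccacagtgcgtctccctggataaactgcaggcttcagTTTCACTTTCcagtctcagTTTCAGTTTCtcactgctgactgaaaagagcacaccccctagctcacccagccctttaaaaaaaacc
*Isg15* (chr4:156200819-156201018, minus strand): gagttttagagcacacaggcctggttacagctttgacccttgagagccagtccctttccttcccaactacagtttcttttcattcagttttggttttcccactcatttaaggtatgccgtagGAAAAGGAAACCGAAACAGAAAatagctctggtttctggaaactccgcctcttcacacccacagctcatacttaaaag
*Bst2* (chr8:71537473-71537672, minus strand): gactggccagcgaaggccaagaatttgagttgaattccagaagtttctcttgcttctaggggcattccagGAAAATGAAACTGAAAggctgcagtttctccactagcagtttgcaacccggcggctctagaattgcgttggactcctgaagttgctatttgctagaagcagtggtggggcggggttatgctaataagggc
*Igtp* (chr11:58199356-58199555, plus strand): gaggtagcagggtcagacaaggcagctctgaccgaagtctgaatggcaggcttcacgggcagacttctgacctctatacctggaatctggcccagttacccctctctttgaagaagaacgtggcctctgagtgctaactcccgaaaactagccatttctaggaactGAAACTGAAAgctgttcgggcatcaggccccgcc
*Ifit1* holds 2 separate matches, which begin 104 and 85 bases before the RefSeq start. Its stretch stops short of that start, where the gene begins in the other annotation. *Isg15* holds 3 and *Bst2* holds 2, which overlap, and *Igtp* holds 1 at 34 bases before the start.

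Genes of MHC class I presentation were also lower, apart from *B2m*. Of 15 tested genes of this list, 12 were lower and *B2m* was higher, where 3.68% and 0.995% of all genes were. The median of the list was -1.12. *H2-K1* stood at 749 and 497 CPM in AND cells and 1469.6 and 1512 CPM in MHCI-/- cells (-1.33 ± 0.18, edgeR, adjusted p = 0.0085). *H2-Q7* (chr17:35439155-35443773), a class Ib heavy chain, stood at 10.6 and 12.6 CPM against 188 and 183 CPM (-4.05 ± 0.14, adjusted p = 3e-05); it shares reads with *H2-Q6* (-4.57), so the split between these is uncertain. *H2-Q4* changed by -1.51. The transactivator of class I genes *Nlrc5* stood at 9.51 and 6.88 CPM against 29.6 and 30.9 CPM (-1.96 ± 0.18, adjusted p = 0.0017). The peptide transporter *Tap1* (-1.12) and the immunoproteasome subunit *Psmb9* (-1.19) were called too. By stage, 6, 13 and 13 genes of the list were lower in CD4+CD8a+, CD4+CD8a-CD69+ and CD4+CD8a-CD69- cells, where 2.1%, 6.37% and 5.46% of all genes were. The 6 fell to 0 without the CD5 and TCRβ gate. In the same gate *H2-Q7* stood at 63.7 to 98.4 CPM in sorted wild-type mice, between the genotypes compared here, and at 10.5 to 20.2 CPM in OT-II mice.

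Genes of regulatory T cells were lower in AND cells. Of 17 tested, 11 were lower and 0 were higher, where 3.68% and 0.995% of all genes were. The median of the list was -1.83. *Foxp3*, the lineage-defining factor, stood at 1.28 and 0.424 CPM in AND cells and 15.3 and 14.7 CPM in MHCI-/- cells (-4.27 ± 0.36, edgeR, adjusted p = 0.0015). At 2000 RNA UMIs per cell, 4 of 1546 (0.259%) and 1 of 1698 (0.0589%) AND cells had a *Foxp3* UMI against 57 of 2569 (2.22%) and 50 of 2205 (2.27%) MHCI-/- cells. The thinning left out 12, 13, 134 and 32 shallower cells, and the shares without it were 0.449% and 0.234% against 3.15% and 3.89%. For scale, *Lyz2*, a gene of myeloid cells, gave 0.0454% to 0.353% of cells in the 4 mice, and the AND shares of *Foxp3* lay within that range. *Ikzf4* (Eos) stood at 9.65 and 6.99 CPM against 32 and 31 CPM (-2.0 ± 0.18, adjusted p = 0.0017), and *Tnfrsf18* (GITR) at 71 and 56.4 CPM against 159 and 186 CPM (-1.5 ± 0.13, adjusted p = 0.0017). In CD4+CD8a-CD69- cells 14 of 16 listed genes were lower and 1, *Izumo1r*, was higher, where 5.46% and 1.58% of all genes were. *Izumo1r* encodes the folate receptor FR4, and in CD4+CD8a-CD69+ cells it stood at 574 and 481 CPM against 245 and 228 CPM (1.11 ± 0.13, adjusted p = 0.00017).

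By stage, 0 of 310 and 0 of 833 CD4+CD8a+ AND cells had a *Foxp3* UMI at 2000 RNA UMIs per cell, against 6 of 629 (0.954%) and 3 of 568 (0.528%) MHCI-/- cells. The AND zeros allow shares of cells with a UMI of up to 0.968% and 0.36%, so at this depth the CD4+CD8a+ shares were not resolved between genotypes. The counts in CD4+CD8a-CD69- cells were 3 of 440 (0.682%) and 1 of 413 (0.242%) against 28 of 821 (3.41%) and 36 of 656 (5.49%). With cells that had a *Foxp3* UMI left out, 5 genes of the list were still called lower over all gated cells and 9 in CD4+CD8a-CD69- cells, and *Ctla4* was no longer called (-0.45, adjusted p = 0.27). Without the first or the second MHCI-/- mouse 6 genes were called. *Ikzf2* (Helios), named after its values were seen, was lower in every stage. It stood at 112 and 208 CPM against 442 and 377 CPM in CD4+CD8a+ cells (-1.29 ± 0.22, edgeR, adjusted p = 0.0047) and at 18.3 and 10.1 CPM against 166 and 155 CPM in CD4+CD8a-CD69- cells (-3.63 ± 0.20, adjusted p = 9.8e-08).

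The list of negative selection genes, which overlaps the lists of TCR targets, NF-κB genes and regulatory T cell genes, was lower as well. Of 18 tested genes, 12 were lower and 0 were higher (median -1.22), where 3.68% and 0.995% of all genes were. The summed level was 526 and 626 CPM in AND mice and 1135 and 1192 CPM in MHCI-/- mice, against 1031 to 1323 CPM in sorted wild-type, 657.5 to 738.3 CPM in F5 and 589 to 771.5 CPM in OT-II mice. *Nr4a1*, an orphan nuclear receptor induced early after TCR engagement, stood at 23.1 and 21.4 CPM against 63 and 69.3 CPM (-1.63 ± 0.11, edgeR, adjusted p = 0.00057). Its relative *Nr4a3* stood at 2.7 and 1.27 CPM against 16.8 and 15.4 CPM (-3.13 ± 0.30, adjusted p = 0.002). *Bcl2a1d*, an antiapoptotic member of the Bcl2 family with close copies, changed by -1.87, and the inhibitory receptor *Pdcd1* by -1.32. *Pdcd1* was at -0.24 without the gate (adjusted p = 0.76) and at -0.71 with the gate at the 50th percentile (0.13), and was not called in either. In CD4+CD8a+ cells 14 of 18 were lower, with a median of -1.33, where 2.1% of all genes were lower. There *Gadd45b*, a stress-response gene and NF-κB target, stood at 3.96 and 7.52 CPM against 55.3 and 47.2 CPM (-2.94 ± 0.26, adjusted p = 4.5e-05), and *Bcl2l11*, the proapoptotic BH3 protein Bim, at 27 and 61 CPM against 121 and 135 CPM (-1.37 ± 0.24, adjusted p = 0.005). The 14 genes became 4 with the gate at the 50th percentile and 8 without a gate.

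The list of TCR signal targets did not move in 1 direction. Of 24 tested, 1 was higher and 4 were lower, where 0.995% and 3.68% of all genes were. The median of the list was -0.04. Over the settings tried 0 to 5 were higher and 2 to 8 lower. The 4 were *Nr4a1*, *Nr4a3*, *Cd6* (-0.77) and *Cd5*, and the 1 was *Id3*, an inhibitor of E proteins that is induced by TCR signals. *Id3* stood at 689 and 718 CPM in AND cells and 442 and 468 CPM in MHCI-/- cells (0.57 ± 0.11, edgeR, adjusted p = 0.027). *Egr1*, a zinc-finger factor of the same pathway, stood at 79.2 and 131 CPM against 84.6 and 102 CPM and the genotypes overlapped. *Cd5* encodes an inhibitory receptor whose level is set by TCR signal strength. Its RNA stood at 212 and 304 CPM against 405 and 464 CPM (-0.81 ± 0.18, adjusted p = 0.048). The gate set only a lower limit on CD5 protein. On the scale of that limit, CD5 antibody medians were 2083 and 1825 in AND and 2513 and 2533 in MHCI-/- gated cells. The difference in these medians was not tested. *Cd5*, *Cd6* and *Id3* lost the call without the first (adjusted p = 0.19, 0.11 and 0.3) or the second (0.23, 0.14 and 0.22) MHCI-/- mouse. In CD4+CD8a+ cells 9 genes of the list were lower and 0 were higher, among them *Cd69* at 129.9 and 137 CPM against 286 and 309 CPM (-1.14 ± 0.13, adjusted p = 0.00022), and the 9 became 2 with the gate at the 50th percentile. Of all genes, 2.1% were lower in CD4+CD8a+ cells. *Id3* in those cells stood at 629 and 672 CPM against 627 and 643 CPM and overlapped. In CD4+CD8a-CD69+ cells *Id3* stood at 789.7 and 721 CPM against 343 and 353 CPM (1.07 ± 0.12, adjusted p = 0.00011).

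Of 16 NF-κB genes tested, 5 were lower and 0 were higher (median -0.62), where 3.68% and 0.995% of all genes were. The subunits *Nfkb2* (-1.11), *Rel* (-0.97) and *Relb* (-1.04) and the inhibitor *Nfkbia* (-0.58) were the named members. Without the first or the second MHCI-/- mouse 1 was called, and without the first or the second AND mouse 10. *Rel* lost the call without the first MHCI-/- mouse (adjusted p = 0.11), *Nfkb2* without the second (0.09), and *Relb* (0.058 and 0.052) and *Nfkbia* (0.27 and 0.24) without either. Of 16 CD3 chains and proximal signaling proteins tested, 0 were called (edgeR), a share near the 4.67% of all genes. An unadjusted p under 0.05 was found for 5 of the 16 and for 2025 of the 10956 genes. DESeq2 called 1 of them higher, *Cd247* (0.42, adjusted p = 0.031), which encodes the CD3ζ chain. In edgeR *Cd247* stood at 504 and 548 CPM against 348 and 405 CPM (adjusted p = 0.1), and it was called without either AND mouse (0.0034 and 0.041). The median of the list was 0.13 and their summed level was 8053 and 8729 CPM against 7424 and 7796 CPM. Among 21 negative regulators of TCR signaling, 3 were lower, *Pdcd1*, *Ctla4* (-0.97) and the ubiquitin ligase *Cblb* (-0.72), where 3.68% of all genes were. The settings tried gave 0 to 4 higher and 1 to 4 lower. *Cblb* lost the call with DESeq2 (adjusted p = 0.083) and, like *Ctla4* (adjusted p = 0.19 and 0.18), without either MHCI-/- mouse.

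**Figure D4:**
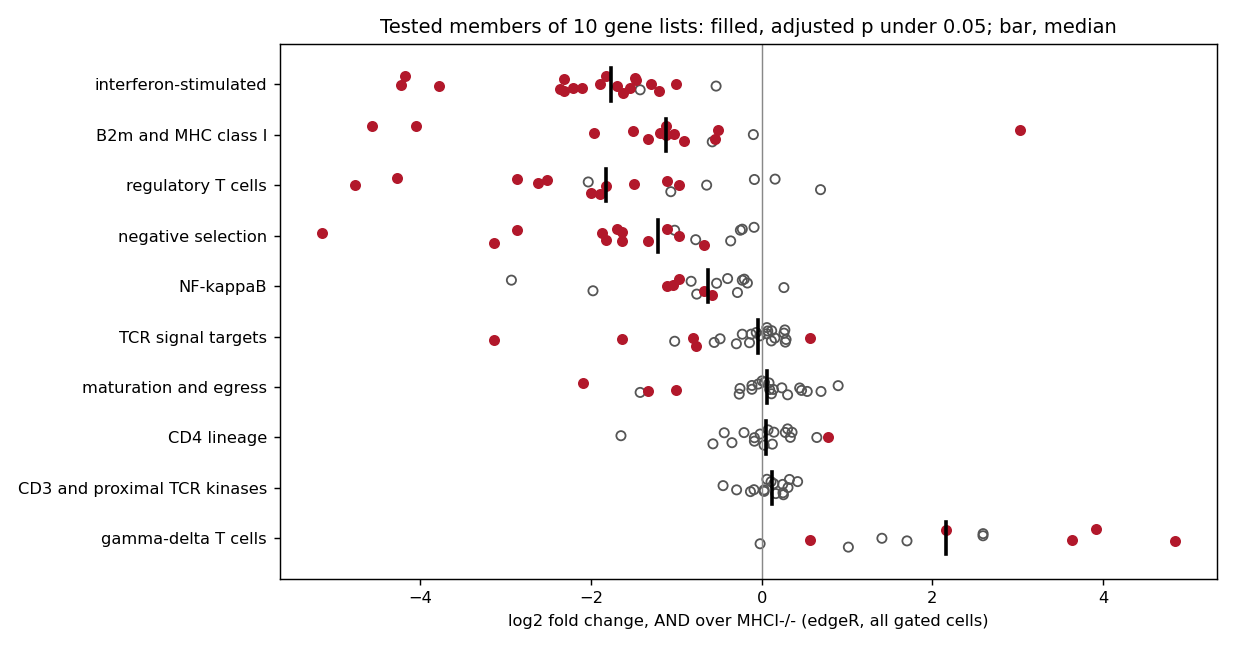
Log2 fold change of AND over MHCI-/- gated cells for each tested member of 10 gene lists; filled points passed an adjusted p of 0.05 and the bar is the median of the list. Of the interferon-stimulated genes 18 of 20 are filled on the left.

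For genes of the CD4 lineage the share called was near that of all genes (4.67%). *Trib2* was the 1 member called of 18 tested (0.78), the call was lost without either MHCI-/- mouse (adjusted p = 0.12 and 0.16), and the median was 0.05. Without the first AND mouse 4 were higher and 2 lower, and without the second 4 were higher and 6 lower. The CD4 lineage factors *Gata3* and *Zbtb7b* stood at 149 and 176 and 70.3 and 72 CPM in AND cells against 116 and 141 and 47.8 and 62.6 CPM, and neither was called (adjusted p = 0.32 and 0.27). The maturation and egress genes differed by stage. Over all gated cells 3 of 22 were lower, *Il7r*, *H2-K1* and *Tesc* (-1.0), and 0 were higher, but 10 were higher without the second AND mouse, 3 without the first or with DESeq2 and 5 without a low-count filter. In CD4+CD8a+ cells 7 were higher and 2 lower, and in CD4+CD8a-CD69+ cells 7 were higher and 3 lower, against 2.06% and 2.8% of all genes higher. Between the CD69+ and CD69- stages of CD4+CD8a- cells the difference in genotype effect was called for 1.34% of all genes, 1.18% in the negative direction and 0.158% in the positive. For this list it was called in the negative direction for 8 members and in the positive direction for 0. The 8 became 4 with DESeq2, 17 without the gate, 5 without the second MHCI-/- mouse and 6 to 12 under the other settings. The 7 higher in CD4+CD8a+ cells were 2 with the gate at the 50th percentile or without the second MHCI-/- mouse, 4 without the gate and 13 without the first AND mouse. The 7 in CD4+CD8a-CD69+ cells were 4 without the second MHCI-/- mouse and 12 without the second AND mouse. The following members were named after their values were seen. *Klf2*, the factor that activates egress genes, stood at 315 and 338 CPM against 126 and 104 CPM in CD4+CD8a+ cells (1.52 ± 0.14, edgeR, adjusted p = 6.5e-05). *S1pr1*, the receptor that guides exit from the thymus, stood at 205 and 144 CPM against 84.9 and 68.9 CPM in CD4+CD8a-CD69+ cells (1.14 ± 0.17, adjusted p = 0.00099). With the gate at the 50th percentile *S1pr1* in CD4+CD8a-CD69+ cells was at 0.39 (adjusted p = 0.41). *S1pr1* stood in CD4+CD8a-CD69- cells at 388 and 329 CPM against 325 and 319 CPM, with a log2 fold change of 0.04 ± 0.12 that did not pass the test.

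Cell cycle genes went in opposite directions in CD4+CD8a+ and in CD4+CD8a- cells. In CD4+CD8a+ cells 13 of 20 listed genes were higher in AND mice and 0 were lower, where 2.06% and 2.1% of all genes were. The median of the list was 1.22. The summed level was 4678 and 3808 CPM in AND mice and 2814 and 2525 CPM in MHCI-/- mice. *Ccna2* (cyclin A2) stood at 64 and 40.2 CPM against 14.3 and 10.1 CPM (2.05 ± 0.26, edgeR, adjusted p = 0.00055). In CD4+CD8a-CD69+ cells 0 were higher and 20 of 20 were lower (median -2.21), where 6.37% of all genes were lower. The summed level of the list was 1914 and 1652 CPM against 3247 and 3110.2 CPM. There *Ccna2* stood at 1.99 and 1.99 CPM against 23.3 and 19.4 CPM (-3.44 ± 0.33, adjusted p = 4.1e-05), and *Ube2c*, a ubiquitin-conjugating enzyme of mitotic exit, at 4.83 and 6.77 CPM against 47.6 and 59.9 CPM (-3.29 ± 0.23, adjusted p = 2.6e-06). The histone *Hist1h2ap* stood at 34.7 and 13.5 CPM against 722 and 368 CPM (-4.50 ± 0.37, adjusted p = 1.2e-05). In CD4+CD8a-CD69- cells 14 of 20 were lower, where 5.46% of all genes were, and 5 were without the gate. The difference of the genotype effect between CD4+CD8a+ and CD4+CD8a-CD69+ cells, fitted in 1 model with the mouse as a block, was called in the positive direction for all 20 listed genes, where 3.02% of 9474 genes were and 0.412% were called in the negative direction (3.43% together). The median of the list was 3.82. With the gate at the 50th percentile 12 members were tested and 5 called, without a gate 16 of 20 were called, and the other settings gave 17 to 20. The increase in CD4+CD8a+ cells depended on the gate. It was 0 of the list with the gate at the 50th percentile, 0 without a gate, 1 with thresholds set within each lane and 9 to 18 when a mouse was left out. Over all gated cells 3 of the 20 were lower, *Top2a* (-0.84), *Rrm2* (-0.73) and *Tyms* (-0.91), and none of these was called without the first (adjusted p = 0.27, 0.46 and 0.31) or the second MHCI-/- mouse (0.054, 0.12 and 0.089). This count was 18 with the gate at the 50th percentile, 9 without the first AND mouse, where 3 were higher, 10 without the second, 9 without a low-count filter and 0 without the gate. The decrease in CD4+CD8a-CD69+ cells held for 14 to 20 genes under every setting.

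**Figure D5:**
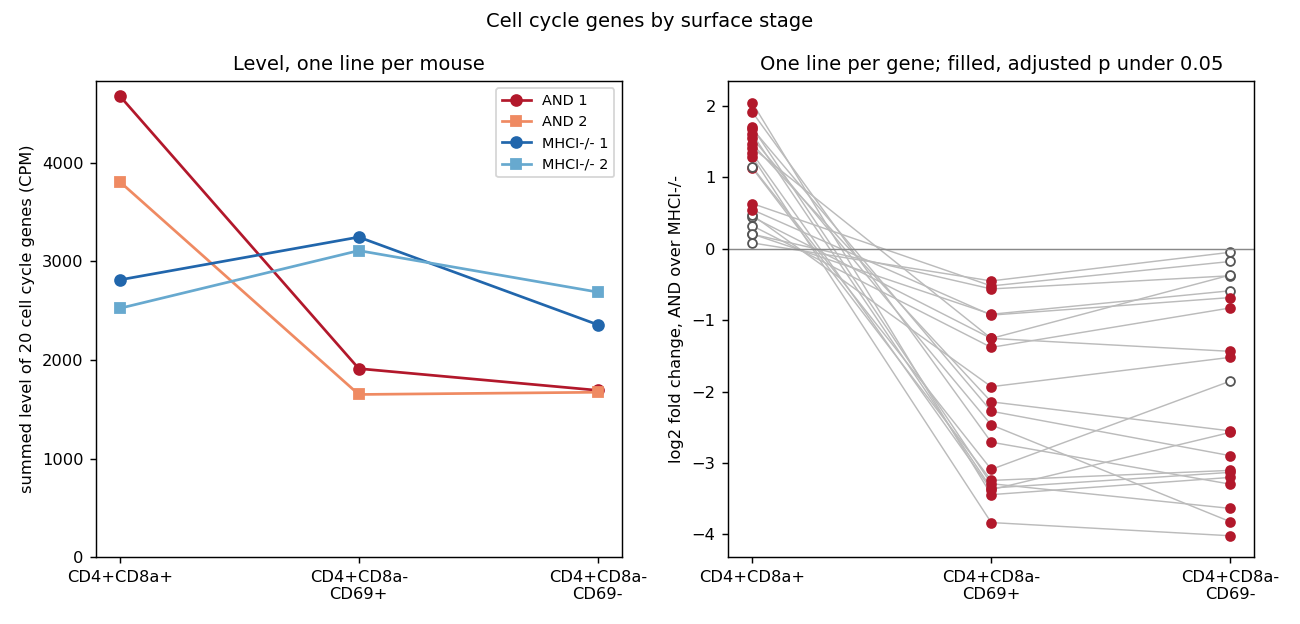
Cell cycle genes in 3 surface stages. Left, summed level of the 20 genes in CPM, 1 line per mouse; right, log2 fold change of AND over MHCI-/- for each gene, filled where it passed an adjusted p of 0.05. AND mice lie above MHCI-/- mice in CD4+CD8a+ cells and below in both CD4+CD8a- stages.

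Recombination and preselection genes, which are high in double-positive cells before selection, showed 0 calls among 18 tested over all gated cells with edgeR, with 8 at an unadjusted p under 0.05. DESeq2 called 3 of them higher (*Aqp11* and *Arpp21* among them), and the median was 0.50. The count moved to 11 higher without the first AND mouse (median 0.83), to 2 higher and 2 lower without the second (-0.08) and to 10 higher and 1 lower without a low-count filter. Within CD4+CD8a+ cells, where 2.06% of all genes were higher and 2.1% lower, 4 of the list were higher and 1 was lower. The 4 included *Dntt* (1.35), which encodes terminal transferase, *Aqp11* (1.11) and the E protein *Tcf12* (0.59), and the 1 was *Lef1* (-0.49). *Dntt* stood at 142 and 262 CPM against 96.8 and 69.5 CPM there (edgeR, adjusted p = 0.0074). These calls depended on the gate. Without it *Dntt*, *Aqp11* and *Tcf12* stood at log2 fold changes of -0.52, -0.025 and -0.027, and none of the 5 was called. With the gate at the 50th percentile *Aqp11* was at -0.33 and *Lef1* at 0.073. With 1 mouse left out, *Tcf12* was called only without the first AND mouse, and *Lef1* was lost without either MHCI-/- mouse (adjusted p = 0.18 and 0.52). The adjusted p of *Tcf12* was 0.1, 0.26 and 0.2 without the second AND, the first MHCI-/- and the second MHCI-/- mouse.

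The share over all genes, to set beside the following counts, was 0.995% higher and 3.68% lower. Of 18 costimulatory and cytokine receptors tested over all gated cells, 0 were higher and 5 were lower, *Tnfrsf4*, *Tnfrsf9*, *Tnfrsf18*, *Il7r* and the hyaluronan receptor *Cd44* (-1.08, lost without either MHCI-/- mouse at adjusted p = 0.29 and 0.077). Of 17 chemokine receptors and integrins, 0 were higher and 2 were lower, *Cxcr3* and *Ccr8*. *Ccr8*, a receptor found on regulatory and negatively selected cells, stood at 0.993 and 1.06 CPM in AND cells against 11.8 and 11.3 CPM (-3.53 ± 0.27, edgeR, adjusted p = 0.0011). Of 12 genes of the Bcl2 family, *Bcl2a1b* (-1.64) and its copy *Bcl2a1d* were lower and 0 were higher. Of 10 genes of dissociation stress, *Jun* and *Nfkbia* were lower and 0 were higher. Over the settings tried, the receptors gave 0 to 2 higher and 4 to 8 lower, the chemokine receptors and integrins 0 to 5 and 1 to 4, the Bcl2 family 0 and 2 to 5 and the stress genes 0 to 4 and 1 to 3. *Jun*, a subunit of AP-1, stood at 0.852 and 0.847 CPM against 16.7 and 12.2 CPM (-4.13 ± 0.33, adjusted p = 0.0014).

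Counts in the single stages were 193 genes higher and 196 lower in AND cells of 9349 tested in CD4+CD8a+ cells, 276 and 627 of 9844 in CD4+CD8a-CD69+ cells, and 146 and 504 of 9236 in CD4+CD8a-CD69- cells. Leaving out 1 mouse gave 191 to 826, 387 to 1928 and 425 to 771 calls in these stages. In all 3 stages 43 genes were higher and 100 were lower. The CD4+CD8a-CD69+ and CD4+CD8a-CD69- cells shared 363 lower genes, which were 57.9% and 72.0% of their lower genes. Of the 193 genes higher in CD4+CD8a+ cells, 69 were also higher in CD4+CD8a-CD69+ cells and 51 were lower there, and 45 were higher and 47 lower in CD4+CD8a-CD69- cells. The stages come from the same 4 mice, so these counts are not independent. *Hltf*, *B2m* and *H2-Q7* were among the largest changes in each stage. *Dapl1* stood in CD4+CD8a-CD69+ cells at 84.7 and 39.8 CPM against 4.06 and 3.0 CPM (4.14 ± 0.35, edgeR, adjusted p = 1.5e-05). *Gzma*, which encodes granzyme A, was higher in CD4+CD8a+ cells, at 64.6 and 52.2 CPM against 11.2 and 13 CPM (2.24 ± 0.20, adjusted p = 5.3e-05). *Arhgap20*, a GTPase-activating protein, stood at 3.41 and 0 CPM against 65.5 and 61.3 CPM in CD4+CD8a-CD69+ cells, and it was not called with DESeq2 (adjusted p = 0.096). *Ankrd37* rose by 1.82 in CD4+CD8a-CD69- cells.

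Over all genes, 0.995% were higher and 3.68% lower in AND cells, to set beside the counts of this paragraph. Of 11 tested genes of the γδ T cell list, 5 were higher in AND cells, 0 were lower and 6 did not pass the test (median 2.16). Whether these calls came from γδ T cells or from other cells was not tested. The genes called were *Trdc*, *Tcrg-C4* (3.92), *Tcrg-C1* (2.16), the kinase *Blk* (4.84) and *Id3*, which αβ T cells also express. The δ segment *Trdv2-2* was called higher too, with 82 and 213 UMIs in AND cells against 47 and 67 (log2 fold change 1.81, edgeR, adjusted p = 0.023), whereas *Trdv4* gave 1 and 1 UMIs against 0. In F5 cells *Trdv2-2* stood at 19.3 and 22.8 CPM against 11.6 and 22.6 CPM in AND cells. *Tcrg-C4* lost the call without either MHCI-/- mouse (adjusted p = 0.069 and 0.085), as did *Tcrg-C1* (0.27 and 0.14), which left 2 calls. Over the settings tried 2 to 10 of the list were higher. Of the innate-like list, 2 of 9 genes were lower, *Xcl1* and *Cxcr3*, and *Blk* was higher. *Zbtb16*, the defining factor of natural killer T cells, had 1 UMI in all 4 mice together. Of the CD8 lineage and cytotoxic list, 1 of 13 was higher, *Gzma* (2.26), and 3 were lower, *Ctsw*, *Xcl1* and *Ccl5* (-2.53). *Cxcr3* was not called without the first MHCI-/- mouse (adjusted p = 0.24), nor *Ccl5* without the second (0.078). Without the gate *Ccl5* turned to 1.39 and was not called. *Xcl1* gave 0 and 0.106 CPM in AND cells and 3.58 and 5.52 CPM in MHCI-/- cells. Markers of other cells were low but not equal. The B cell list summed to 282 and 188 CPM against 124 and 126 CPM, with *Ighm* (0.93) and *H2-Ab1* (3.58) called higher and with 3 and 3 against 2 and 2 of its 13 members at 0. The myeloid and dendritic list summed to 587 and 813 CPM against 504 and 501 CPM, with *Apoe* called higher (2.41) and with 2 and 1 against 3 and 4 of its 15 members at 0. That list holds *Ccr9*, which is also on the preselection list, so its sum is not a level of myeloid cells. *Apoe* stood at 59.9 and 19.3 CPM against 8.77 and 5.37 CPM. Without the first or second MHCI-/- mouse *Ighm* (adjusted p = 0.083 and 0.074), *H2-Ab1* (0.19 and 0.12) and *Apoe* (0.079 and 0.17) were not called. Of 4 thymic epithelial and stromal markers tested, *Epcam* was lower (-1.91), and it too was lost without either MHCI-/- mouse (0.097 and 0.18). *Krt8*, of epithelial cells, gave 13 and 9 UMIs in AND mice against 1 and 1. No erythroid marker passed the low-count filter, but *Hbb-bs* gave 105 UMIs in the first AND mouse and 0 in the other 3, and *Hba-a1* gave 23 and 2 against 1 and 2. *C1qa*, of macrophages, gave 72 and 16 UMIs against 10 and 9. *Csf1r*, which defines macrophages, gave 3 and 1 UMIs against 0 and 0. The part of such cells or their free RNA in the results above was not tested.

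Calls of named genes also moved with the gate and the tool. Without the gate *Apoe*, *Cblb*, *Ccl5*, *Ccr8*, *Cd44*, *Cd5*, *Cd6*, *Dennd2d*, *Epcam*, *Hps3*, *Id3*, *Ighm*, *Lrrc8a*, *Nfkbia*, *Pdcd1*, *Rrm2*, *Tcrg-C1*, *Thy1*, *Top2a*, *Trbc1*, *Trib2* and *Tyms* were not called over all gated cells. Nor were *Bcl2l11*, *Ccna2*, *Gzma*, *H2-Q7*, *Ikzf2* and *Tnfrsf4* in CD4+CD8a+ cells. The gate at the 50th percentile ended the calls of *Ctla4*, *Id3*, *Pdcd1* and *Sgk1* over all gated cells, of *Bcl2l11* in CD4+CD8a+ cells and of *Ankrd37* and *Rag1* in CD4+CD8a-CD69- cells. In that last stage the second AND mouse had 38 cells, under the minimum of 50, and was left out, so the mice changed too. DESeq2 did not call *Apoe*, *Cblb*, *Cxcr3* and *Isg15* over all gated cells, nor *Bcl2l11*, *Dntt*, *Ikzf2*, *Tcf12* and *Tnfrsf4* in CD4+CD8a+ cells. With the study's protein filters *Cblb*, *Cd5*, *H2-Ab1*, *Klf3*, *Madd*, *Rrm2* and *Top2a* were not called, and thresholds of each lane ended the calls of *Ccna2*, *Dntt*, *Lef1* and *Tcf12* in CD4+CD8a+ cells.

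The antibody panel gave 109 proteins outside the gating rule. At equal library size 75.2% of them were higher in both AND mice and 11.9% were lower in both. Among the 78 antibodies under 20 per 10000 in MHCI-/- cells, 70 were higher in AND cells, and their sum was 825 and 1827 per 10000 in AND mice against 451 and 428 in MHCI-/- mice. Choosing them by a low MHCI-/- level favours that direction, so the count and the sum are description only. TMM scaling moved the median log2 ratio from 1.33 to 0.05. With TMM, 4 antibodies were higher (3.67%) and 6 were lower (5.5%), together 9.17% of 109, and with library size 4 were higher and 1 was lower, 3 of them shared. Without the first AND mouse 95 were called, without the second 71, and without the first or second MHCI-/- mouse 2 and 0. The 3 shared antibodies were Sca-1, given above, NK-1.1 and CD335. Sca-1 was lower under both scalings (-2.67 and -1.53). NK-1.1 stood at 17.8 and 31.1 per 10000 in AND mice against 2.33 and 1.94 (2.33 ± 0.23, edgeR, adjusted p = 0.019), and CD335 at 55.1 and 119 against 10 and 8.27 (2.02 ± 0.23, adjusted p = 0.019). Neither was called without the first (adjusted p = 0.22 and 0.28) or the second MHCI-/- mouse (0.33 and 0.49), and CD335 was not called without the gate. Both proteins mark natural killer cells, whose genes *Klrb1c* and *Ncr1* were at 0. CD86 stood at 11 and 23.9 against 32.9 and 39.2 (-2.28 ± 0.23, adjusted p = 0.019), and under library size it did not pass (adjusted p = 0.15). CD54 (-1.80), CD274 (-1.67), TCR Vβ5 (-2.60) and CD49f (-1.43) were lower and CD45R/B220 (1.58) and CD14 (1.48) higher under TMM alone. For CD49f the mice overlapped at 42.7 and 69.5 against 64.9 and 69.1 per 10000. CD134, the protein of *Tnfrsf4*, stood at 59.5 and 110.4 against 23.5 and 24.3 and was not called (adjusted p = 0.15), while its RNA was lower.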

How the data were processed

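The authors deposited raw UMI counts per barcode for RNA and 111 antibodies, made with Cell Ranger 3.1.0 on mm10 per the submitters' processing notes. Filters, gate and stages were as stated in the report. CD4, CD8a and CD69 thresholds (216.2, 50.0 and 36.8 per 10000 antibody UMIs) were set by Otsu's method on sorted wild-type cells, and sums needed at least 50 cells. Counts summed per mouse were tested with edgeR 4.0.16 (TMM, filterByExpr, quasi-likelihood test, Benjamini-Hochberg over all genes) in R 4.3.3 without a replicate block. Steps were tested on simulated data. Doublets were kept; an alternative left out those called by simulated-doublet scores at 0.8% per 1000 barcodes. Other alternatives used DESeq2 1.42.0, other filters, gates and thresholds, and left out each mouse. Depth ranged from 17958459 to 26195453 RNA UMIs per lane.

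Named genes were *B2m*, *Rag1*, and, among called genes without overlap between genotypes and with a mean of at least 50 CPM in the higher one, the 12 largest changes in each direction, or 5 in stage fits, leaving out receptor segments, ribosomal, mitochondrial and unnamed genes; up to 4 called members of each list by adjusted p; and the called antibodies. Neighbours of *Hltf*, receptor segments and constant genes, *Bcl2l11*, *Bst2*, *Isg15*, *Igtp*, *Ifi203*, *Cd5*, *Cd44*, *Cd247*, *Egr1*, *Gata3*, *Zbtb7b*, *Ikzf2*, *Klf2*, *S1pr1*, *Tap1*, *Psmb9* and *H2-Q6* were named after their values were seen. Some list members are not reported here. Genes and lists were chosen with earlier results of these data known. Gene positions follow GENCODE vM21 (GRCm38). Replicates are separate mice, and p-values rest on the spread between 2 mice per genotype, moderated over genes. The AND mice also came from different experiments, so their spread mixes mouse and experiment.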

Additional observations from a re-analysis of the deposited data

Results flagged for a closer look

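The difference between the genotypes itself differed by stage, by a test of the difference in 1 model (edgeR, adjusted p under 0.05). Between CD4+CD8a-CD69- and CD4+CD8a-CD69+ cells the effect differed for 127 of 9478 genes (1.34%). The named genes whose effect was more positive in CD69- cells were *Ccr9* (by 1.28 on the log2 scale), *Mcm3* (0.93), *Rtn4* (0.56), *Cd40lg* (0.54) and *Bzw2* (0.43). The chemokine receptor *Ccr9* went from a log2 fold change of -0.01 in CD69+ cells to 1.31 in CD69- cells. The named genes whose effect was more negative in CD69- cells were *Gpr83* (-1.64), *Fam101b* (-1.51), *Dapl1* (-1.47), *Tnfrsf4* (-1.38) and *Pdlim4* (-1.25). *Gpr83*, a receptor of regulatory T cells, changed sign, from 0.68 in CD69+ to -0.97 in CD69- cells. *Cd40lg* and *Rtn4* lost the call when any 1 of the 4 mice was left out. Calls were also lost for *Ccr9* without the second AND mouse (adjusted p = 0.078), for *Mcm3* without the first (0.08) or second (0.14) AND mouse or the second MHCI-/- mouse (0.11), for *Bzw2* without the first AND mouse (0.08) or the first (0.065) or second (0.24) MHCI-/- mouse, for *Pdlim4* without the first AND (0.11) or second MHCI-/- mouse (0.28) and for *Dapl1* without the second MHCI-/- mouse (0.11).

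Between CD4+CD8a+ and CD4+CD8a-CD69+ cells, a comparison added after the stage fits were seen, the effect differed for 325 of 9474 genes (3.43%). The named genes with a more positive effect in CD4+CD8a+ cells were the cell cycle genes *Hist1h1b* (6.36), *Ccna2* (5.60), *Mki67* (5.24), *Hist1h2ap* (5.12) and *Birc5* (5.01). Those with a more negative effect were *Gpr183* (-1.15), *Id3* (-1.02), *Nfkbid* (-0.96), *Izumo1r* (-0.90) and *Cd69* (-0.89). CD4+CD8a-CD69+ cells were selected on CD69 protein, so the value of *Cd69* is not independent of the stage rule. With the gate at the 50th percentile 2 of the 39 genes with a more negative effect were still called, *Id3* among them. *Izumo1r* was not called without the second MHCI-/- mouse (adjusted p = 0.055), nor *Nfkbid* without the first (0.082). The antibody matrices also held tags for cell hashing. They gave 164915 UMIs in the lane of the first AND mouse, 1.12% of its antibody UMIs, and 0 in the other 3 lanes.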

How the results depend on the processing

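Depth limited genes of a few UMIs, and 2 mice per genotype limited every call. Leaving out 1 mouse, the lone mouse of a genotype being assumed to vary like the others, gave 143 to 2127 calls over all gated cells (512), 191 to 826 in CD4+CD8a+ cells (389), 387 to 1928 in CD69+ cells (903), 425 to 771 in CD69- cells (650), 38 to 124 for the difference between CD69- and CD69+ cells (127), 156 to 644 for that between CD4+CD8a+ and CD69+ cells (325) and 0 to 95 antibodies (10). In the same order DESeq2 gave, where it moved the count over 1.5 times, 180 in CD4+CD8a+, 495 in CD69+ and 352 in CD69- cells, 26 and 122 for the differences and 21 antibodies. Without a low-count filter the counts were 1327, 669, 1439, 1024 and, for the second difference, 532. The gate at the 50th percentile gave 78, 527 and 336 (3 mice) in the stages, 21 for the second difference and 5 antibodies, and the first difference could not be fitted and was not run. Without the gate there were 119 in CD4+CD8a+ cells, 415 for the first difference and 1 antibody. Thresholds of each lane gave 238 in CD4+CD8a+ cells, and library size gave 5 antibodies. The AND minus MHCI-/- share of CD69- cells, -3.93 percentage points, was -19.85 with the gate at the 50th percentile and 3.07 without it. The difference in cells with a *Foxp3* UMI, -2.08 points, was -2.23 with the study's protein filters, -2.42 at the 50th percentile, -1.71 without the gate, -3.18 without thinning and -0.94 at 1000 UMIs. For *Ctla4*, -0.98 became -1.24 without the gate, -2.01 without thinning and -0.70 at 1000 UMIs, for *Il2ra* it became 0.00086 without the gate, and for TCR Vβ8 it became -2.46 with the protein filters. Of the named genes' values, 1813 kept direction and call, 202 kept direction and lost the call, 6 gained it and 10 reversed: without the gate *Ccl5* (1.39), *Rrm2* (0.16), *Tyms* (0.19) and, in CD4+CD8a+ cells, *Dntt* (-0.52), *Aqp11* (-0.025) and *Tcf12* (-0.027), with the gate at the 50th percentile *Aqp11* (-0.33) and *Lef1* (0.073), and *Rag1*, not called with all mice (-0.57), without the first AND mouse (0.20) or the first MHCI-/- mouse (0.01). *Rag1* was called without the second AND mouse (-2.62). The causes were not tested. With the replicate number as a block the counts were 652, 457, 1172 and 801 genes and 13 antibodies. The number is not a pairing, since the first AND and the first MHCI-/- mouse came from different experiments. The correlation of their deviations (r = -0.02 over 10956 genes) rests on 2 mice per genotype and cannot test pairing.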
